A study of Rattus norvegicus with 10 samples.

Results

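Ligands, receptors and Smads of the TGF-beta and activin pathway were described in rat mammary tumours that were sampled at the end, labelled as total tumours, and as needle biopsies early on. The set was a list of 10 genes: Tgfb1, Tgfb2, Tgfb3, Inhba, Inhbb, Ltbp1, Tgfbr1, Tgfbr2, Smad3 and Smad7. A gene was read by the probe sets annotated to it alone, and by the one with the highest mean log2 signal where it had several. This gave 9 genes with a probe set, out of 14217 genes with one on the array, and Tgfbr2 was not analysed here. The 9 genes had 15 probe sets, and the chosen probe set of each lay above the limit for testing, a mean log2 signal of 5.15.

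The tumours had been induced in female Sprague-Dawley rats with one oral dose of 100 mg/kg of 7,12-dimethylbenz(a)anthracene (DMBA), a polycyclic aromatic hydrocarbon carcinogen, and no further treatment was given. The 5 total tumours were collected at sacrifice, at an age of 19 weeks. The 5 biopsies were cores of 0.7 cm by 2.5 mm taken with a cutting needle from the same tumours at 12 weeks, when a tumour measured 2 cm3. Both groups thus carried DMBA tumours, no normal gland was among the arrays, and it is not stated if the tumours (31D3, 32D1, 37I1, 50I1, 52I4) grew in different rats. Each sample was one Affymetrix Rat Genome 230 2.0 array, with log2 signals between 2.34 and 14.26. All 11 mammary epithelial markers were measured, and their mean signal lay between 10.74 and 11.84 in total tumours and between 10.63 and 11.64 in biopsies. The series text names a needle sample for the final moment too, where the sample labels, followed here, name the total tumour, so how the late samples were taken is not settled. Age, any difference in sampling and the run of array numbers went with the group, so they cannot be told apart from it.

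TGF-beta ligands are secreted in a latent complex that latent binding proteins such as LTBP1 tether to the matrix. Once released, they bring a type II and a type I receptor together, and the type I receptor phosphorylates SMAD2 and SMAD3, which enter the nucleus with SMAD4. SMAD7 is induced by the pathway and blocks it at the receptor. Activins are dimers of the beta chains that Inhba and Inhbb encode and signal through the same Smads. In the mammary gland TGF-beta restrains growth of the epithelium, while in tumours it also acts on fibroblasts and on matrix deposition.

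The promoters of 4 genes are shown because their signals fell into 2 sets that varied together, Inhba with Ltbp1 and Tgfb3 with Inhbb, as described further on. Each line gives the 250 bases before the transcription start, from RefSeq on the build GRCr8, 5' to 3' on the gene's strand, and all 10 genes matched by symbol. Capitals mark matches, on either strand, to the Smad palindrome GTCTAGAC, the Smad half-site CAGAC, the AP-1 site TGANTCA, the cAMP response element TGACGTCA, the GC box GGGCGG or the TATA box TATAAA. The 4 windows lie at chr17:53804509-53804758 (Inhba), chr6:26177302-26177551 (Ltbp1), chr6:111456947-111457196 (Tgfb3) and chr13:33089374-33089623 (Inhbb), all on the minus strand.
Inhba: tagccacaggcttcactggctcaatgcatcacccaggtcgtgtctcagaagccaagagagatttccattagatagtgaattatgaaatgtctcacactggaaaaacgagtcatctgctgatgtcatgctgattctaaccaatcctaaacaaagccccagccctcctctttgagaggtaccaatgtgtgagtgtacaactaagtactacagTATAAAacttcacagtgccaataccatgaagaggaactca
Ltbp1: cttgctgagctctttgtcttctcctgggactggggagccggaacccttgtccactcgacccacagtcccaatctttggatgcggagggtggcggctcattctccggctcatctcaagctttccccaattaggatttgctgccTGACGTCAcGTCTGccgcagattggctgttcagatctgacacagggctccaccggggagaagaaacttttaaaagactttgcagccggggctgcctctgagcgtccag
Tgfb3: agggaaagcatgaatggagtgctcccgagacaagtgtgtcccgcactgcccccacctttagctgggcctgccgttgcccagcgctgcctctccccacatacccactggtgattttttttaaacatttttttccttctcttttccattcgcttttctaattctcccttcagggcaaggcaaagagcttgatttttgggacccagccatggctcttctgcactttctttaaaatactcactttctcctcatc
Inhbb: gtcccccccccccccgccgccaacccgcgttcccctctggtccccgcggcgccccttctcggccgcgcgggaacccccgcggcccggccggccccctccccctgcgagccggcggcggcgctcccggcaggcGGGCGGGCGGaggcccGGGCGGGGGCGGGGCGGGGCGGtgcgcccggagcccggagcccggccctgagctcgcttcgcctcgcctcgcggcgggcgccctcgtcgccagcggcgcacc
The Inhba window held a TATA box, found in 12.9% of all 33465 promoter windows of this length. The Ltbp1 window held a cAMP response element, found in 1.59%, and a Smad half-site, found in 42.9%. The Inhbb window held 6 GC boxes, some of them overlapping, a motif found at least once in 30.5%, and its GC content was 86.8%, against a median of 51.2% over all windows. The Tgfb3 window held none of the 6 motifs. The Smad palindrome was in 0 of the 10 windows and in 0.173% of all, and the AP-1 site was in 0 of 10 and in 6.34%. The Smad half-site was in 1 of the 10. Tgfb1 and Tgfb2 also belonged to the 2 sets, and their windows, not shown, held none of the 6 motifs.

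The design sets each tumour at sacrifice against its own early biopsy. For these genes, Inhbb had a higher signal in the total tumour of 5 of 5 pairs, Tgfb2 and Tgfb3 in 4 of 5, and Inhba, Ltbp1 and Tgfb1 went opposite ways in different tumours. By their chosen probe sets, Tgfbr1, Smad3 and Smad7 had mean differences close to 0. The second probe sets of Tgfbr1 and Smad3 differed by -0.20 and -0.22. None of the 9 genes passed the test over all probe sets, with a lowest adjusted p of 0.701 in limma, for Inhbb. The background of this comparison is 0%, since 0 of 18625 probe sets passed. At an unadjusted p under 0.05, 1 of the 9 genes was past the threshold, against 4.17% of the 10793 genes tested, 1.61% higher in total tumours and 2.56% lower. All 9 genes had overlapping groups, where 0.417% of genes had groups that did not overlap.

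**Figure D1:**
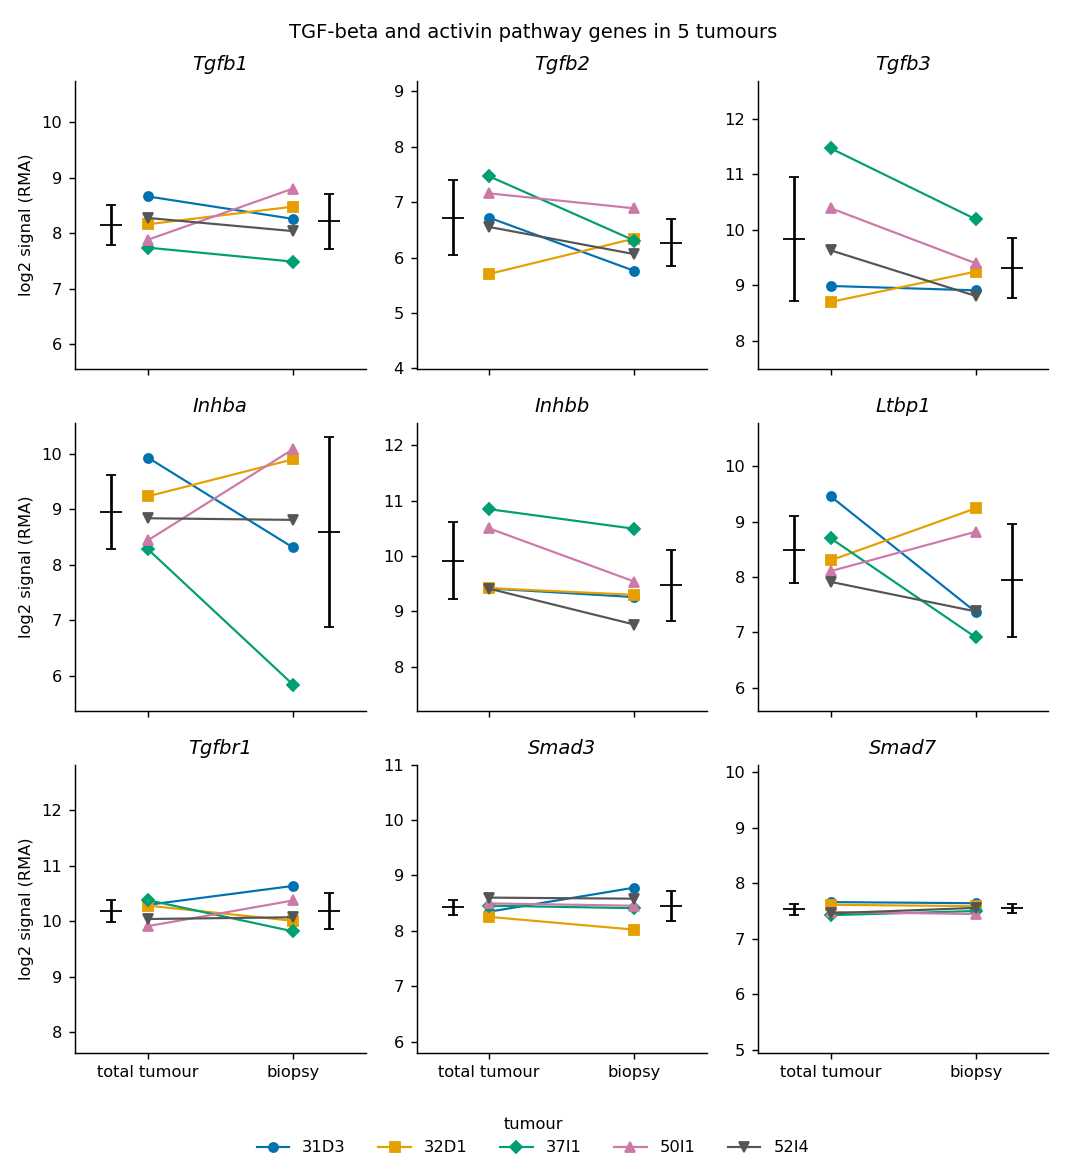
Log2 signal of the 9 genes in the total tumour (left) and the biopsy (right) of each of 5 tumours, joined by a line. Black bars give the mean and SD of a group (n = 5), and every panel spans the same number of log2 units. Inhba spans 8.28 to 9.94 in total tumours and 5.84 to 10.09 in biopsies, while Smad7 stays between 7.43 and 7.66 in all 10 arrays.

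Inhbb encodes the beta B chain of activin B, which is needed for duct growth in the mouse mammary gland. Its log2 signal in the total tumours was 9.41 in 31D3, 9.42 in 32D1, 10.84 in 37I1, 10.50 in 50I1 and 9.41 in 52I4. In the biopsies it was 9.26 in 31D3, 9.30 in 32D1, 10.49 in 37I1, 9.54 in 50I1 and 8.76 in 52I4. Tumour 37I1 was the highest and 50I1 the second highest at both moments, and the groups overlapped widely. The total tumours averaged 9.92 ± 0.70 and the biopsies 9.47 ± 0.64 (SD, n = 5 each). The mean log2 difference was 0.45 (SE 0.148, 95% interval 0.09 to 0.80), or 1.36-fold, with an unadjusted p of 0.0214 and an adjusted p of 0.701 in limma. An exact sign-flip permutation over the 5 pairs gave the smallest two-sided p that 5 pairs allow, which lies above 0.05. Over all genes tested, 2.41% were higher in 5 of 5 pairs, and 5.83% had the same direction in 5 of 5. The smallest difference was 0.12, in 32D1, and the largest was 0.96, in 50I1.

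Tgfb3 encodes TGF-beta 3, the isoform that is induced at the start of involution in the mouse mammary gland. Its log2 signal in the total tumours was 8.99 in 31D3, 8.70 in 32D1, 11.47 in 37I1, 10.39 in 50I1 and 9.63 in 52I4. In the biopsies it was 8.91 in 31D3, 9.25 in 32D1, 10.19 in 37I1, 9.40 in 50I1 and 8.81 in 52I4. As for Inhbb, 37I1 was the highest and 50I1 the second highest in both groups. The mean difference was 0.53 (SE 0.275, 95% interval -0.13 to 1.19; exact p = 0.1875), higher in 4 of 5 pairs, with 32D1 as the exception at -0.55. It was 0.34 without tumour 37I1 and 0.80 without 32D1.

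Tgfb2, which encodes TGF-beta 2, had the lowest mean signal of the 9 genes, 6.50. Total tumours had a log2 signal of 6.72 in 31D3, 5.70 in 32D1, 7.47 in 37I1, 7.16 in 50I1 and 6.55 in 52I4. Biopsies had 5.76 in 31D3, 6.34 in 32D1, 6.31 in 37I1, 6.89 in 50I1 and 6.06 in 52I4. The total tumours were higher in 4 of 5 pairs, and again 32D1 went the other way. The mean difference was 0.45 (SE 0.261, 95% interval -0.18 to 1.08; exact p = 0.25), and it was 0.27 without 37I1 and 0.72 without 32D1. The second probe set of Tgfb2 had the same sign in 5 of 5 pairs and a smaller mean difference, 0.20.

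Tgfb1 encodes TGF-beta 1, the isoform found in platelets, immune cells and stroma. Its log2 signal in the total tumours was 8.66 in 31D3, 8.16 in 32D1, 7.74 in 37I1, 7.88 in 50I1 and 8.27 in 52I4. In the biopsies it was 8.26 in 31D3, 8.48 in 32D1, 7.49 in 37I1, 8.80 in 50I1 and 8.04 in 52I4. Tumour 37I1 was the lowest at both moments, the opposite of its place for Tgfb3 and Inhbb. The mean difference was -0.07 (SE 0.210, 95% interval -0.57 to 0.44; exact p = 0.8125), with 3 pairs higher and 2 lower. Its sign turned without tumour 50I1, to 0.14.

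Inhba encodes the beta A chain of activin A, made by fibroblasts among other cells, and it varied most of the 9 genes. Its log2 signal in the total tumours was 9.94 in 31D3, 9.23 in 32D1, 8.28 in 37I1, 8.44 in 50I1 and 8.84 in 52I4. In the biopsies it was 8.31 in 31D3, 9.90 in 32D1, 5.84 in 37I1, 10.09 in 50I1 and 8.81 in 52I4. The total tumours spanned 1.65 log2 units and the biopsies 4.25, with biopsy 37I1 the lowest. The difference was 2.45 in 37I1, 1.62 in 31D3 and 0.03 in 52I4, with -0.67 in 32D1 and -1.65 for tumour 50I1. The mean was 0.36 (SE 0.593, 95% interval -1.07 to 1.78; exact p = 0.625), and it was -0.17 without 37I1 and 0.86 without 50I1. The dim second probe set of Inhba, with a mean signal of 5.11, agreed in sign in 3 of 5 pairs.

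Ltbp1, the latent binding protein, followed an order close to that of Inhba in the biopsies but not in the total tumours. Among total tumours, 37I1 was the lowest for Inhba and the second highest for Ltbp1. Its log2 signal in the total tumours was 9.46 in 31D3, 8.30 in 32D1, 8.70 in 37I1, 8.11 in 50I1 and 7.91 in 52I4. In the biopsies it was 7.37 in 31D3, 9.24 in 32D1, 6.91 in 37I1, 8.82 in 50I1 and 7.38 in 52I4. The difference was 2.09 in 31D3 and 1.79 in 37I1, and -0.94 in 32D1 and -0.71 in 50I1, the same signs as for Inhba. The mean was 0.55 (SE 0.496, 95% interval -0.64 to 1.75; exact p = 0.4375), and it was 0.17 without 31D3 and 0.93 without 32D1.

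Tgfbr1 encodes the type I receptor of TGF-beta. Among total tumours the log2 signal was 10.30 in 31D3, 10.28 in 32D1, 10.38 in 37I1, 9.91 in 50I1 and 10.04 in 52I4. Among biopsies it was 10.64 in 31D3, 10.01 in 32D1, 9.82 in 37I1, 10.38 in 50I1 and 10.07 in 52I4. The pair differences lay between -0.46 and 0.56 and averaged 0.000394 (SE 0.170, 95% interval -0.41 to 0.41). The second probe set agreed in sign in 5 of 5 pairs, with a mean difference of -0.20.

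Smad3 encodes the receptor-activated Smad and Smad7 the inhibitory one. The log2 signal of Smad3 was between 8.25 and 8.60 in the total tumours and between 8.02 and 8.78 in the biopsies. Its pair differences were -0.43 in 31D3, 0.23 in 32D1, and between 0.02 and 0.04 in the other 3 tumours. Its mean difference was -0.02 (SE 0.118, 95% interval -0.30 to 0.26), and its second probe set agreed in sign in only 2 of 5 pairs. That probe set differed by -0.22 on average and was lower in 4 of 5 pairs. Smad7 signals were 7.66 in 31D3, 7.61 in 32D1, 7.43 in 37I1, 7.48 in 50I1 and 7.46 in 52I4 as total tumours. As biopsies they were 7.64 in 31D3, 7.59 in 32D1, 7.50 in 37I1, 7.44 in 50I1 and 7.56 in 52I4. Its mean difference was -0.02 (SE 0.0832, 95% interval -0.22 to 0.18), and no pair differed by more than 0.10 in either direction. The other 2 probe sets of Smad7 had mean signals of 4.49 and 4.68, below the limit for testing.

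**Figure D2:**
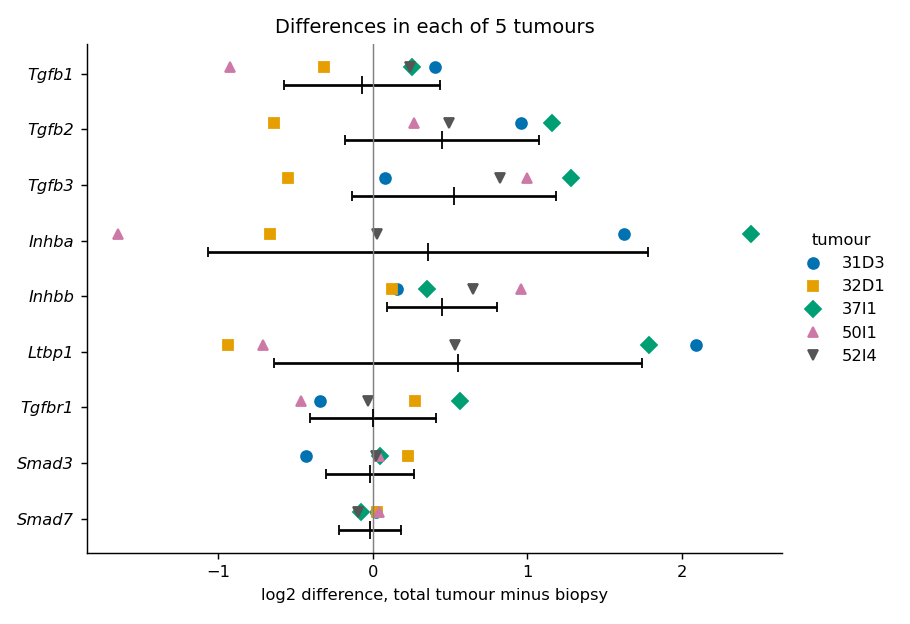
Log2 difference, total tumour minus biopsy, of each gene in each of 5 tumours (coloured points), with the mean and the 95% interval of the paired limma fit in black. Inhbb is above 0 in 5 of 5 tumours, Inhba spreads from -1.65 to 2.45, and Smad7 stays within 0.10 of 0.

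Taken by tumour, 8 of 9 genes were higher in the total tumour of 37I1 and 7 of 9 in those of 31D3 and 52I4. In 50I1, 5 of 9 were higher, and in 32D1, 4 of 9. The median difference of the 9 genes was 0.56 in 37I1, 0.24 in 52I4, 0.16 in 31D3, 0.04 in 50I1 and -0.32 in 32D1. The medians over all genes tested lay between -0.01 and 0.00417 in the same 5 pairs. Over the 5 pairs together the median of the 9 mean differences was 0.36, against 0.00393 over all 10793 genes tested, and 6 of 9 were above 0, against 51.2% of all genes. The median of the 9 was -0.00364 without tumour 37I1, 0.0858 without 31D3 and 0.00936 with array weights.

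The F-test of the paired fit asked whether a gene kept a level of its own in a tumour at both moments. It called 0 of the 9 genes, where 0.0859% of probe sets and 0.0371% of genes were called. At an unadjusted p under 0.05 it had 2 of the 9, Inhbb (F = 15.11, unadjusted p = 0.00207, adjusted p = 0.212 in limma) and Tgfb3 (F = 6.77, unadjusted p = 0.0176, adjusted p = 0.391), against 10.1% of all genes tested.

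Across the 10 arrays the ligands and Ltbp1 fell into 2 sets. Pearson's r was 0.88 between Tgfb1 and Inhba, 0.79 between Inhba and Ltbp1 and 0.65 between Tgfb1 and Ltbp1. In the other set it was 0.92 between Tgfb3 and Inhbb, 0.80 between Tgfb2 and Tgfb3 and 0.67 between Tgfb2 and Inhbb. Between the sets it was -0.59 for Tgfb1 with Tgfb3 and -0.63 for Tgfb1 with Inhbb, which became -0.25 and -0.23 without tumour 37I1. Inhba had -0.45 with Tgfb3 and -0.55 with Inhbb, and Ltbp1 had -0.00473 and -0.04. Tgfb2 had -0.08 with Tgfb1, 0.07 with Inhba and 0.43 with Ltbp1, so the sets were not opposed throughout. Smad7 ran against the second set, with r of -0.75 with Tgfb3 and -0.68 with Tgfb2, although Smad7 spanned only 0.24 log2 units. These values are a description over 10 arrays of 5 tumours, each sampled at both moments. Of 36 pairs of genes, 6 had r above 0.6 and 4 had r below -0.6. The share among all pairs of genes on the array is not given here, so these counts do not show closer ties than among other genes. Without the 2 arrays farthest from the median of the first gene, r was 0.82 for Tgfb1 with Inhba, 0.72 for Inhba with Ltbp1 and 0.45 for Tgfb1 with Ltbp1. It was 0.82 for Tgfb3 with Inhbb, 0.58 for Tgfb2 with Tgfb3 and 0.52 for Tgfb2 with Inhbb. Across the sets, Tgfb2 with Ltbp1 had 0.50, so the sets were not sharply parted. Spearman's rho was 0.90 for Tgfb1 with Inhba and 0.75 for Tgfb3 with Inhbb.

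The first set went with markers of stromal and immune cells, and Tgfbr1, outside both sets, went with the immune markers too. The mean signal of the 12 fibroblast markers, all measured, was 9.75 to 10.88 in the total tumours and 7.97 to 11.14 in the biopsies, with the lowest biopsy in 37I1 and the highest in 50I1. Inhba had r = 0.91 with it, 0.70 without tumour 37I1 and 0.61 without the 2 arrays farthest from its median, and Tgfb1 had r = 0.86 and Ltbp1 r = 0.71. The fibroblast mean differed by 1.82 in 37I1, 1.37 in 52I4, 0.77 in 31D3, -0.47 in 32D1 and -1.39 in 50I1, the same signs as Inhba in each tumour. In 52I4, though, Inhba differed by only 0.03, and the endothelial mean had these signs too. The mean of 10 macrophage markers, of 11 listed, spanned 8.50 to 10.30 in total tumours and 8.05 to 10.14 in biopsies, and r with it was 0.77 for Inhba, 0.76 for Ltbp1 and 0.73 for Tgfb1. Without the 2 arrays farthest from each gene's median these were 0.48, 0.50 and 0.45, and with the fibroblast mean they were 0.67 for Tgfb1 and 0.52 for Ltbp1. For the 12 T and NK cell markers, with means of 6.05 to 8.98 in total tumours and 5.14 to 7.31 in biopsies, r was 0.73 for Ltbp1, 0.73 for Inhba and 0.72 for Tgfb1, or 0.32, 0.57 and 0.62 without the 2 farthest arrays. With the endothelial markers, of which 8 of 9 were measured, r was 0.76 for Tgfb1, 0.70 for Ltbp1 and 0.65 for Inhba. Of the platelet markers only Pf4 was above the limit for testing, and r of Tgfb1 with it was 0.54. The link to immune markers was not particular to the first set. Tgfbr1 had r = 0.71 with the macrophage mean, or 0.78 without the 2 farthest arrays. With the T and NK cell mean it had 0.58, or 0.56 without them. Its r was 0.67 with Pf4 and 0.38 with the fibroblast mean. Smooth muscle markers, 8 of 8 measured, ran the other way, with r = -0.87 for Inhba, -0.73 for Ltbp1 and -0.65 for Tgfb1. The part of these cells in the signals of Inhba, Tgfb1, Ltbp1 and Tgfbr1 was not tested. In bulk samples, fewer cells of a type and less RNA per cell cannot be told apart.

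The second set had low or negative r with the fibroblast and macrophage means. Tgfb3 had r = -0.28 with the fibroblast mean, -0.23 with the macrophage mean and 0.73 with the epithelial mean, and Inhbb had -0.42, -0.31 and 0.68. Without the 2 arrays farthest from each gene's median, r with the epithelial mean was 0.70 for Tgfb3 and 0.46 for Inhbb. Without the milk protein gene Csn2 in the epithelial list, a choice made after the values were seen, r was 0.71 for Tgfb3, 0.57 for Inhbb and 0.74 for Tgfb2. Leaving out the 2 farthest arrays as well gave 0.16 for Tgfb3, -0.14 for Inhbb and 0.63 for Tgfb2. Of 8 skeletal muscle markers 3 were tested, and their mean was highest in 37I1, at 8.68 in the total tumour and 9.71 in the biopsy, with 7.22 in the total tumour and 8.66 in the biopsy of 50I1. With it, r was 0.64 for Inhbb and 0.53 for Tgfb3, or 0.86 and 0.72 without the 2 farthest arrays and 0.14 and 0.02 without tumour 37I1. For Inhbb and the mean of 3 erythrocyte markers, r was 0.53 and rho 0.78. Mast cell markers were lower in total tumours for 7 of 7 genes at an unadjusted p under 0.05, with a median of -0.85, where 2.56% of all genes tested were lower at that level, and 0 of 7 passed after adjustment in limma. With their mean, r was -0.66 for Tgfb2, -0.59 for Tgfb3, -0.58 for Inhbb and 0.69 for Smad7. The part of epithelial, muscle, blood or mast cell content in these signals was not tested.

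**Figure D3:**
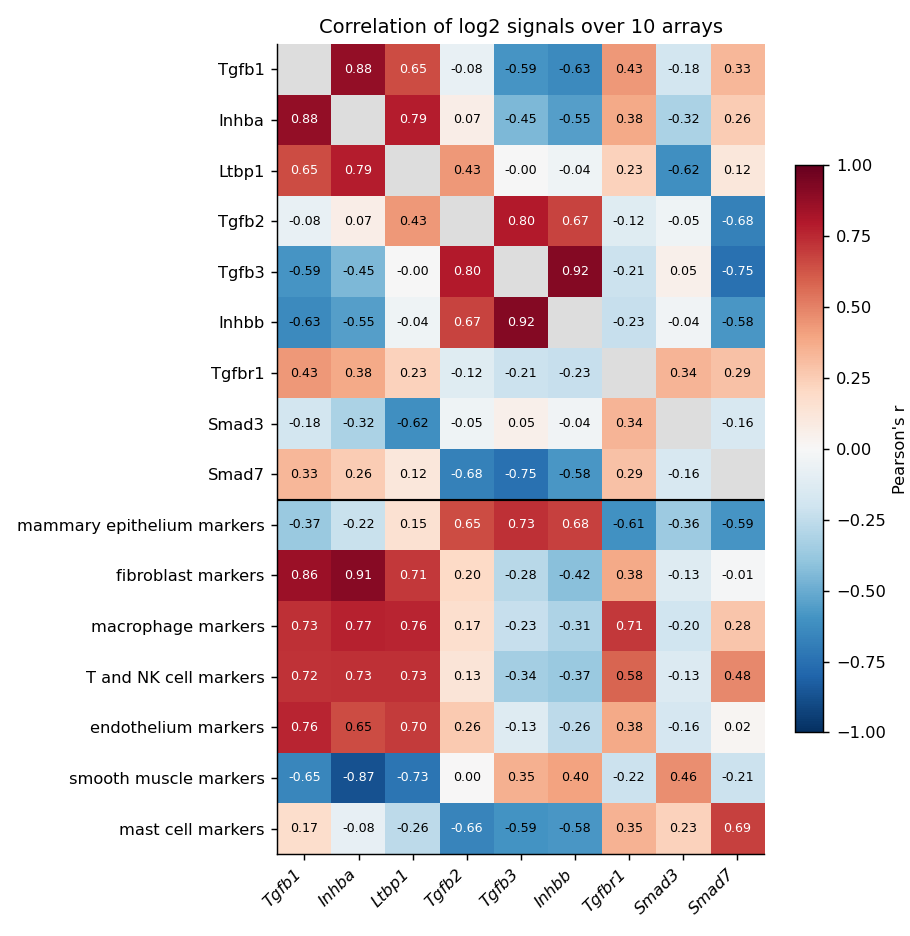
Pearson's r over 10 arrays between the log2 signals of the 9 genes (upper rows) and between each gene and the mean signal of 7 marker lists (lower rows). Red squares mark signals that vary together, with 0.88 for Tgfb1 and Inhba, 0.92 for Tgfb3 and Inhbb and 0.91 for Inhba and the fibroblast markers.

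**Figure D4:**
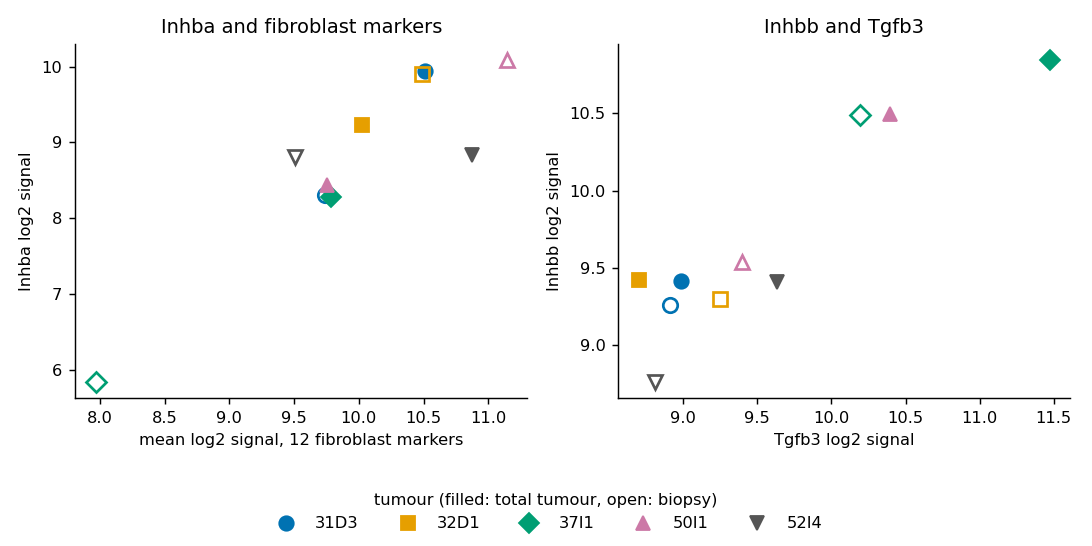
Left, Inhba log2 signal against the mean log2 signal of 12 fibroblast markers. Right, Inhbb against Tgfb3. Each point is an array, filled for the total tumour and open for the biopsy, with colour and shape for the tumour. Biopsy 37I1 is lowest on both axes at left, and both samples of 37I1 are among the highest at right.

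The 3 genes most like each ligand over the 10 arrays were taken from the 10793 genes tested. For Inhba these were F2r, the thrombin receptor, at r = 0.98, Fez2 at 0.97 and Pcolce, which enhances procollagen processing, at 0.97. For Tgfb1 they were Map4k1, a kinase of blood cells, at 0.96, the protease gene Prss23 at 0.95 and Oaf at 0.94. For Tgfb3 they were Clec2d, a C-type lectin gene, at 0.97, Morc4 at 0.97 and Rassf10 at 0.96. For Inhbb they were Tgfb3 itself at 0.92, the pseudogene Scgb1d2-ps1 at 0.92 and Gjb2, a gap junction protein, at 0.91. For Tgfb2 they were Enpp3 at 0.94, Zdhhc9 at 0.92 and Mfge8, a milk fat globule protein, at 0.92. Leaving out 1 tumour brought these 15 values to no less than 0.78, reached by Scgb1d2-ps1 without 37I1. The genes were picked as the highest of 10793 over the same 10 arrays, so high values follow from the choice. Leaving out a tumour uses those arrays again and does not test the likeness.

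The rest of the pathway was read in 5 lists, of which 75 of 106 genes were tested and 0 passed over all probe sets. At an unadjusted p under 0.05 there were 2 ligands and 4 response genes higher, and 1 receptor, 1 extracellular regulator and 2 response genes lower, against 1.61% higher and 2.56% lower of all genes tested. Of 24 other ligands of the family, 8 were tested, with a median difference of 0.07, 4 higher and 4 lower. Gdf10, a BMP-like ligand, had a mean signal of 7.65 ± 1.41 in the total tumours and 6.14 ± 1.65 in the biopsies (SD, n = 5 each). Its difference was 1.51 (SE 0.571, adjusted p = 0.778 in limma), carried by 4.06 in 31D3 and 2.01 in 52I4, with -0.02 in 32D1. Bmp7 differed by 0.35 (SE 0.140), higher in 4 of 5 pairs, and Inha, the alpha chain that turns activin beta chains into inhibin, by -0.32 (SE 0.170).

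Of 14 other receptors 10 were tested, with a median difference of 0.01, 6 higher and 4 lower. The activin type II receptor Acvr2b differed by -0.35 (SE 0.139), lower in 4 of 5 pairs. Bmpr2, the BMP type II receptor, differed by -0.22 (SE 0.135), and the decoy receptor Bambi by 0.28 (SE 0.154). Acvr1b, the activin type I receptor, had no probe set of its own and was not analysed here. Of 17 other Smads and cofactors 15 were tested, with a median of -0.06, 5 higher and 10 lower. Smad1, a Smad of BMP signalling, differed by -0.43 (SE 0.253), the receptor anchor Zfyve9 by -0.25 (SE 0.139) and the corepressor Tgif2 by -0.17 (SE 0.0925).

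Of 22 extracellular regulators 17 were tested, with a median of -0.03, 6 higher and 11 lower. Fmod, a proteoglycan that binds TGF-beta, differed by -0.74 (SE 0.262, adjusted p = 0.739 in limma), lower in 5 of 5 pairs, with -1.93 in 31D3 and -0.06 in 32D1. Furin, the protease that cuts the TGF-beta precursor, differed by -0.41 (SE 0.229), and Itgb6, a chain of an integrin that releases TGF-beta, by -0.25 (SE 0.147). Of 29 genes known to respond to TGF-beta 25 were tested, with a median of 0.23, 21 higher and 4 lower, where 51.2% of all genes tested were higher. Their mean signal differed by 1.05 in 37I1, 0.75 in 31D3, 0.58 in 52I4, -0.40 in 32D1 and -0.53 in 50I1, the same signs as the fibroblast mean in each tumour. The endothelial mean and the mean of the extracellular regulators had these signs too, so the match was not particular to fibroblast markers. The fibroblast markers had 11 of 12 higher and a median of 0.46, and their part in the response genes was not tested. Of the 29, 4 are fibroblast markers as well and 2 are smooth muscle markers. The list was not sorted by the direction of the response, so these counts do not measure activity of the pathway. At an unadjusted p under 0.05 in limma, Id1, Id3, Cdkn1a and Angptl4 were higher, and Acta2 and Tagln were lower. Id1, an inhibitor of basic helix-loop-helix factors, had a mean signal of 8.54 ± 0.41 in the total tumours and 7.48 ± 0.46 in the biopsies (SD, n = 5 each). It differed by 1.05 (SE 0.228) and the cell cycle inhibitor Cdkn1a by 0.45 (SE 0.120), each higher in 5 of 5 pairs. Tagln, an actin-binding protein of smooth muscle, differed by -0.38 (SE 0.0930), lower in 5 of 5 pairs, and the 8 smooth muscle markers were all lower, with a median of -0.38. These 3 had an adjusted p of 0.642 in limma.

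**Figure D5:**
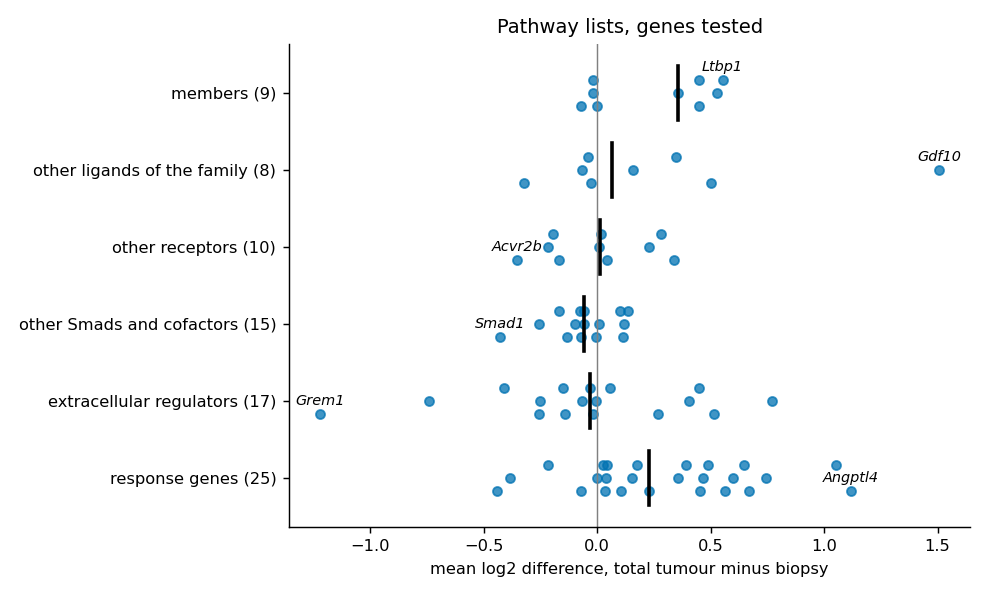
Mean log2 difference, total tumour minus biopsy, of each tested gene of the 9 genes described and of 5 lists of the same pathway, with the number tested in brackets. Each point is a gene, black bars are medians, and the gene farthest from 0 in each row is named, as Gdf10 at 1.51. None was past an adjusted p of 0.05 in limma.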

How the data were processed

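Arrays of 5 total tumours and 5 biopsies were used. The authors deposited a log2 signal per probe set and array, which the submitters' processing notes give as Robust Multichip Average (RMA). That method puts the probe intensities of the arrays onto 1 distribution before they are summarized per probe set, which largely removes a shift shared by most transcripts. The array medians of the deposited signals still ran from 5.99 to 6.11. That the scale is log2 was inferred from their range, 2.34 to 14.26, and the RMA version is not given in the sources used here. GeneSpring GX 7.3 is named for the statistics in the series text.

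Of 31099 probe sets, 57 controls were left out, which left 31042. The platform annotation gave 1 gene to 20826 of them, several to 436 and none to 9780. Symbols were updated through gene identifiers to RefSeq (GRCr8). The dimmest 40% by mean over all arrays were left out, leaving 18625 probe sets.

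Groups and pairs came from the tumour names in the labels. Deviations from the group means correlated above 0.1 in 4 of 5 pairs of the same tumour and in 6 of 20 pairs of different tumours. These correlations ran from -0.21, in 50I1, to 0.34 within tumours, and from -0.51 to 0.36 between different tumours. The comparison was fitted in limma 3.58.1 (lmFit, eBayes; R 4.3.3), with a term for the tumour because the authors tested paired samples, per the series text. Benjamini-Hochberg adjustment ran over all 18625 probe sets, with calls at 0.05. Differences between tumours were an F-test in that fit. It is not said that samples came from separate animals, so a p-value covers only the spread among these tumours, which may be technical in part.

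The genes and lists were chosen with earlier results of these data known. All 10 genes were named, with the 3 smallest p-values of each pathway list and the 3 genes most like each ligand. Any other gene named was picked with its values in view. The fit was tested on simulated data. Alternatives were other filters, an unpaired fit, the methods' t-test, a trend in the variance, array weights, other normalizations, other choices of probe set, a threshold of 0.10 and leaving out each tumour. Figures were drawn with matplotlib 3.10.9. The number of arrays limits the precision.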

Additional observations from a re-analysis of the deposited data

How the results depend on the processing

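In limma or the methods' t-test, 0 of the 9 genes passed under any of 16 alternatives for total tumours against biopsies. The same held under 14 alternatives for the differences between tumours. Smad7 was not tested with its most variable probe set, which lay below the limit. In the first comparison 0 probe sets passed under 14 alternatives, and 1133 probe sets had an unadjusted p under 0.05 in the main limma fit. The methods' t-test had 1013 probe sets at that unadjusted level and 0 after Benjamini-Hochberg adjustment. With no replicate block 869 probe sets were at that level, and 0 probe sets and 0 of the 9 genes passed, as in the paired fit. The count of probe sets that differed between tumours, 16, was 26 with no filter, 28 at an adjusted p under 0.10, and between 0 and 1 with a tumour left out, where fewer samples remain. The median difference of the 9 genes, 0.36, was 0.00936 with array weights and between -0.00364 (without 37I1) and 0.53 (without 32D1) with a tumour left out.

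Tgfb2, Tgfb3, Inhbb and Ltbp1 kept their sign with each tumour left out, with array weights, median centring and quantile normalization. The filters, the unpaired fit, the methods' t-test and the variance trend leave a difference as it is by construction. With a tumour left out, Tgfb1 lay between -0.19 and 0.14, Inhba between -0.17 and 0.86, Tgfbr1 between -0.14 and 0.12, Smad3 between -0.0823 and 0.0840, and Smad7 between -0.0321 and 0.00223. Tgfbr1 was -0.0445 with array weights, -0.000513 with quantile normalization, -0.10 with the mean of its probe sets and -0.20 with its most variable one. Smad3 was 0.00936 with array weights, 0.0127 with median centring and 0.00582 with quantile normalization. It was -0.12 with the mean of its probe sets and -0.22 with its most variable one. Smad7 was 0.0146 with median centring, 0.0246 with quantile normalization and -0.12 with its most variable probe set. Median centring moves all genes by the same amount by construction, and the 2 probe set settings read other probe sets. Why signs turned under the other settings was not tested. Inhba was 0.00431 with array weights. The number of arrays limits the precision, and signals near the limit of 5.15 lie close to background.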

Other observations

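Genes that BMP ligands are known to induce were also read, chosen after their values were seen. Id3, which like Id1 encodes an inhibitor of basic helix-loop-helix factors, differed by 0.67 (SE 0.224, unadjusted p = 0.0224 in limma). Id2 differed by 0.04 (SE 0.164), and Smad6, the inhibitory Smad of BMP signalling, by 0.11 (SE 0.111). The ligand gene Bmp2 differed by 0.50 (SE 0.324), carried by 2.08 in 31D3, with pair differences between -0.03 and 0.31 in the other tumours. Of the other BMP ligand genes tested, Bmp7 differed by 0.35, Bmp6 by 0.16 and Bmp3 by -0.03. Grem1, a BMP antagonist, differed by -1.22 (SE 0.855), with pair differences of -3.63 in 50I1 and 2.59 in 37I1. The antagonist Chrd differed by -0.07 (SE 0.323). Nog, another antagonist, lay below the limit for testing and differed by 0.84, carried by 4.06 in 31D3.

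For the chosen probe sets of the 9 genes, the gap between the extreme sample and the next one, over the range of the group, stayed under the critical value of 0.71 in all 18 groups of 5. For Inhba in biopsies, where 37I1 was lowest, it was 0.582.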
